A study of Homo sapiens with 17 samples.

Results

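The metallothionein genes of the human chromosome 16 cluster were followed across 17 libraries of PC3M, an established metastatic prostate carcinoma line. Members were the rows named MT2A or MT1 followed by a single letter. The rule found 6 genes of 14613 named in the deposited tables: MT1E, MT1F, MT1X and MT2A in both tables, and MT1G and MT1L in the heat shock table only. RefSeq holds 10 genes that match the rule, of which 9 are protein-coding and MT1L is a transcribed pseudogene. The other 4 (MT1M, MT1A, MT1B and MT1H) have no row in either table and are not analysed here.

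All cells were PC3M grown at 37 °C in 5% CO2. In the heat shock experiment, 3 libraries carried the control siRNA siNT without stress (basal), 3 carried siNT and were held at 42 °C for 1 h with 2 h of recovery, and 3 carried siJMJD6, the siRNA against JMJD6, and had the same heat shock. In the MG132 experiment, each group had 2 libraries: siNT with the solvent DMSO for 4 h, siNT with 2.5 µM MG132 for 4 h, siJMJD6 with the same MG132 treatment, and HSF1 knockout (KO) cells with MG132. MG132 is a proteasome inhibitor, JMJD6 a Jumonji-domain oxygenase, and HSF1 the main transcription factor of the heat shock response. Transfection lasted 72 h. The labels name no siRNA for the KO libraries, called A and B, and do not say whether these are separate clones, so the knockout and the missing transfection cannot be told apart. Unstressed siJMJD6 or KO cells are not analysed here, so a difference under stress cannot be split into a baseline and a response. The labels do not say that replicates were separate cultures. The p-values then measure the spread among these libraries alone, and it may be technical.

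Metallothioneins are small cysteine-rich proteins that bind zinc, copper and cadmium through their thiol groups, buffer free zinc and take up oxidants. Their genes are known for induction by zinc through MTF1, a zinc-sensing transcription factor that binds metal response elements in their promoters, and by glucocorticoids and oxidative stress. The prostate is known as a zinc-rich organ, and its carcinomas usually lose zinc.

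The coding sequences of the 3 best measured members are shown because they are so alike that a short read may fit more than 1 gene. They come from the GENCODE release 29 transcripts MT2A-201, MT1X-201 and MT1E-201, are given 5′ to 3′ without the stop codon, and have the cysteine codons in capitals.
MT2A: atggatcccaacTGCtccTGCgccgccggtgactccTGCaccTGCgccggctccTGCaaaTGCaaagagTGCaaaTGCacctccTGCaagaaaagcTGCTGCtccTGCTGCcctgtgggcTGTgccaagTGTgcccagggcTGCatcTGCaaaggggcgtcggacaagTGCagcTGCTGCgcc
MT1X: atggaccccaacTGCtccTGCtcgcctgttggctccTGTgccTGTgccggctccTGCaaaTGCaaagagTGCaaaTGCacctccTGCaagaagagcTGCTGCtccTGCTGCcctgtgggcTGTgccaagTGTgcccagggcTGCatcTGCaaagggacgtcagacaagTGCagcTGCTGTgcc
MT1E: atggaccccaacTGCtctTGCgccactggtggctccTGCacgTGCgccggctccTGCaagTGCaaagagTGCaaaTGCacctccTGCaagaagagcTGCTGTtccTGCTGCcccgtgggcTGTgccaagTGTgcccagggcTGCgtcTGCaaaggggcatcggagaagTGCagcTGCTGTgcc
Each spans 183 bases in 3 exons, and 20 of the 61 codons (32.8%) encode cysteine. MT1E and MT2A were identical at 92.3% of positions, MT1X and MT2A at 92.3%, and MT1E and MT1X at 90.7%. The assay, QuantSeq FWD, makes 1 tag from the 3′ part of each transcript, so counts need no correction for length. In the last 300 bases of each transcript, the share of 50-base windows found unchanged in a transcript of another gene was 14.3% for MT2A, 30.7% for MT1X, 12% for MT1E, 9.16% for MT1F, 28.7% for MT1G and 6.37% for MT1L. No source used here gives the read length or the handling of reads that fit several genes, so the split of tags among these paralogs is uncertain, most of all for MT1X.

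The members lie on chromosome 16 between 56608584 and 56684196 (GRCh38.p14, RefSeq). MT2A spans 56608584 to 56609497, MT1L 56617461 to 56618818, MT1E 56625781 to 56627112, MT1F 56657959 to 56659303, MT1G 56666730 to 56668065 and MT1X 56682470 to 56684196. The promoters of MT2A and MT1X, the members measured in every group, are shown for the density of metal response elements. They are the 250 bases before the RefSeq start on the plus strand (GRCh38.p14), 5′ to 3′, with each metal response element core in capitals. The annotations differ on the start: the RefSeq start lies 385 bases into the GENCODE transcript MT2A-201 and 46 bases into MT1X-201. The core was searched as TGCACNC or TGCGCNC on both strands.
MT2A, chr16:56608334-56608583: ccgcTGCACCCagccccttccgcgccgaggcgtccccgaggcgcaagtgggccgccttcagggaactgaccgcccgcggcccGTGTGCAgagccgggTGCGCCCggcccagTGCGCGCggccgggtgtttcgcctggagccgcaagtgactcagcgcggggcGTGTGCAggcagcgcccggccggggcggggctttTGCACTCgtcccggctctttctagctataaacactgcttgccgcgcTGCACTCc
MT1X, chr16:56682220-56682469: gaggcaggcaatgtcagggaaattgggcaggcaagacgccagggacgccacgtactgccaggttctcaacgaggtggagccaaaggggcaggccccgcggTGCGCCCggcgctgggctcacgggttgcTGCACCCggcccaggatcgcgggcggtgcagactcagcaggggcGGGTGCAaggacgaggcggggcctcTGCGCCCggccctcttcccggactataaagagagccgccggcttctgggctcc
MT2A held 7 cores, as many as or more than which were found in 0.0313% of 35116 RefSeq promoters of the same length. MT1X held 4 cores, and 0.37% of promoters held at least as many. At least 1 core was present in 24.8% of promoters. The antioxidant response element core TGACNNNGC, bound by NRF2, matched once in each promoter and in 10.9% of all promoters. Neither match overlapped a metal response element core. A heat shock element of 3 alternating GAA and TTC units, each 2 bases from the next, matched in neither (0.441% of all promoters), and the glucocorticoid element ACANNNTGT matched in neither (4.61%). These matches are letters in a window and were not tested as binding sites. Bases beyond these 250 were not searched, so an element there would be missed.

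**Figure D1:**
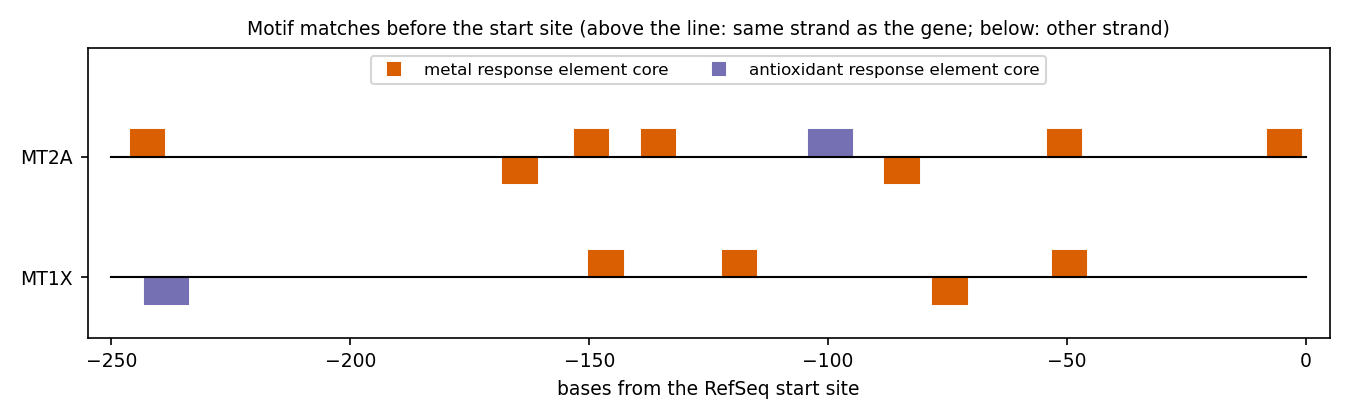
Positions of motif matches in the 250 bases before the RefSeq start of MT2A and MT1X, in bases from the start, with matches on the gene's own strand above the line. MT2A carries 7 metal response element cores and MT1X 4, and each carries 1 antioxidant response element core.

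Libraries summed to between 1505826 and 1819640 normalised counts. The targeted genes followed the labels: JMJD6 averaged 10.7 with siJMJD6 against 224 with siNT after heat shock and 21.6 against 148 under MG132, and HSF1 averaged 230.3 in KO cells against 1786 in siNT under MG132. A 3′ tag need not lie in the deleted part, so HSF1 counts do not check the deletion itself. Epithelial markers (5 of 5 listed) were at 12.0 to 1401 in every library, 2 mesenchymal markers at 10.4 to 602, 5 markers of androgen receptor-positive prostate at 0 to 25.3 where listed, and CD14, the listed blood marker, at 0 to 8.54.

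MT2A carried most of the family's signal. The members together made up 0.0264% to 0.113% of a library, and MT2A was 83.8% to 98.5% of their sum, ranking between 128 and 672 among all genes of a library. The summed level was 1598 to 1933 in siNT basal libraries, 1616 to 1826 in siNT after heat shock and 881 to 1040 in siJMJD6 after heat shock. It was 772 to 920 in siNT DMSO, 729 to 1065 in siNT MG132, 1269 to 1276 in siJMJD6 MG132 and 423 to 482 in KO MG132. The siJMJD6 libraries therefore stood lowest in the heat shock table and highest in the MG132 table, with no overlap with the other groups of their table.

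**Figure D2:**
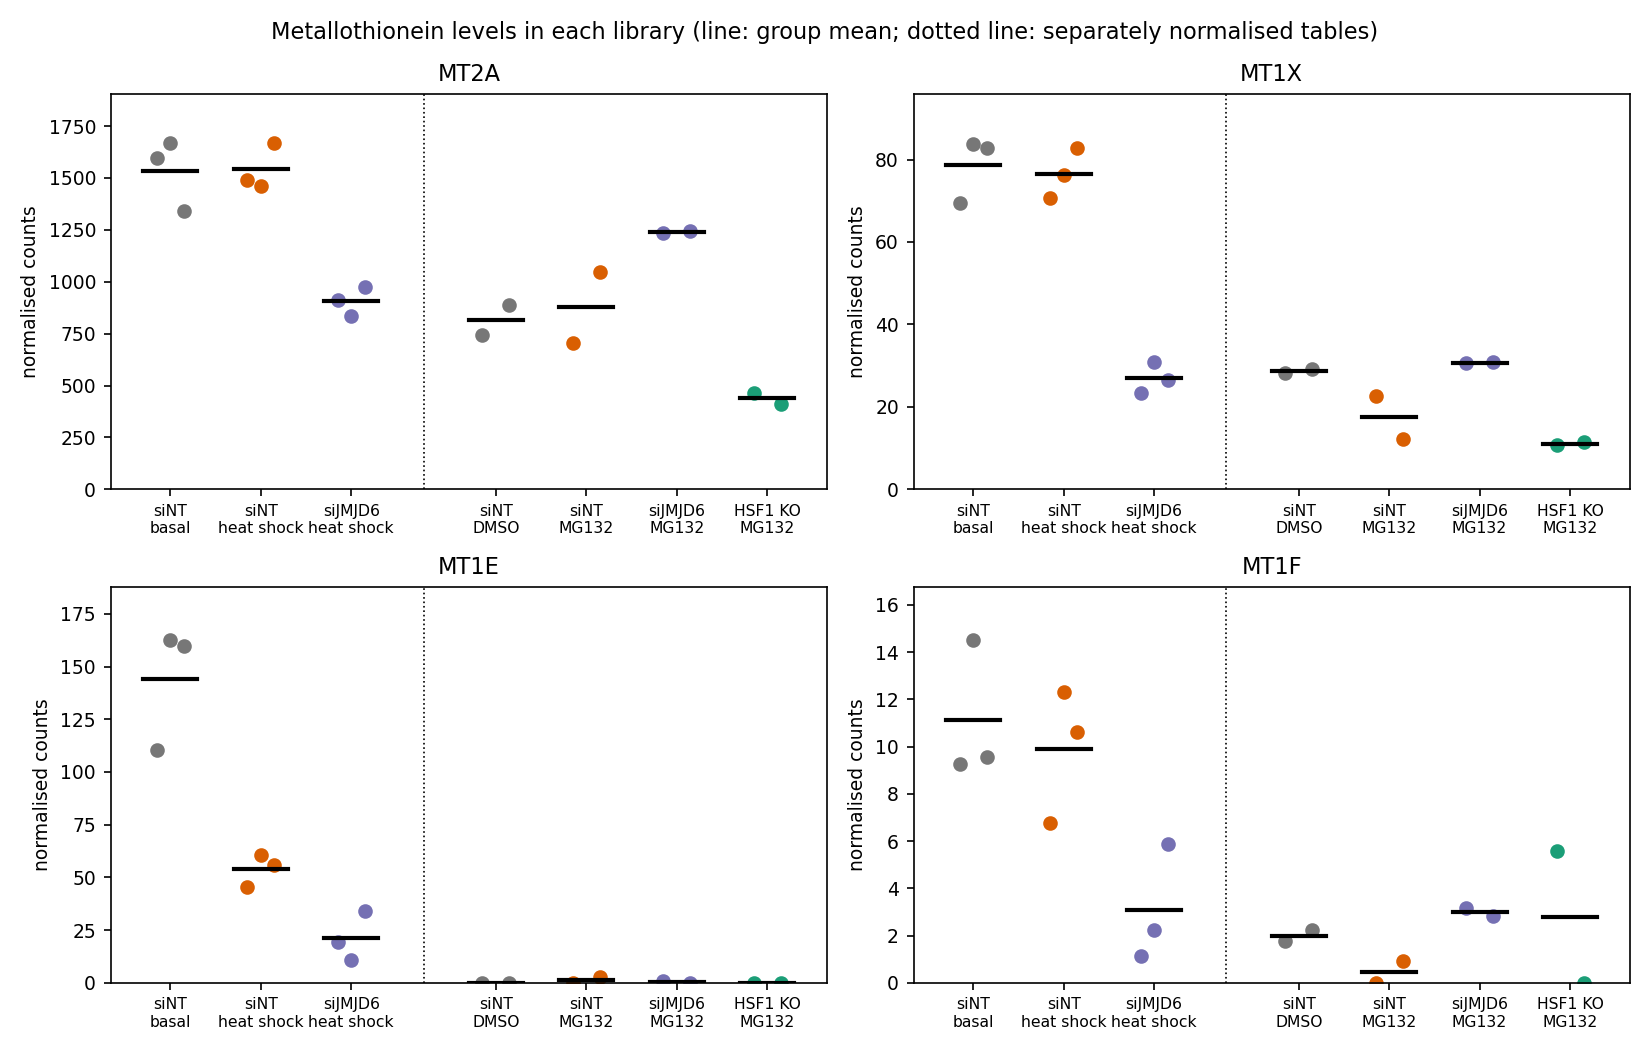
Normalised counts of MT2A, MT1X, MT1E and MT1F in each library by group, with the group mean as a line and a dotted line between the separately normalised tables. The siJMJD6 libraries of MT2A lie at 837 to 972 after heat shock, below siNT, and at 1234 to 1243 under MG132, above siNT.

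Heat shock alone was compared with basal cells in siNT libraries. MT1E fell, and the major members MT2A and MT1X were not called (limma, adjusted p under 0.05 over 9831 genes, on log2 of the normalised count plus 1). MT1E was at 110, 163 and 160 normalised counts in basal cells and at 45.3, 60.6 and 56.0 after heat shock. Every heat-shocked library lay below every basal library. MT1E was thus 2.62-fold lower on the log2(value + 1) scale, with a log2 change of -1.39 ± 0.24 (SE, n = 3 and 3; limma adjusted p = 0.000196). Of 4 members tested, 1 was lower, where 4.09% of all genes tested were called, 2.86% higher and 1.23% lower.

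MT2A, the most abundant member, was at 1594, 1667 and 1340.1 normalised counts in basal cells and at 1492, 1462 and 1671 after heat shock. The groups overlapped, and the log2 change was 0.01 ± 0.083 (95% interval -0.16 to 0.18, limma adjusted p = 0.975). The sign of this small value turned under other scalings, which gave -0.0030 and -0.024. MT1X, a widely expressed member, was at 69.6, 83.6 and 82.9 in basal cells and at 70.6, 76.3 and 82.9 after heat shock. These groups overlapped too, with a log2 change of -0.037 ± 0.18 (95% interval -0.40 to 0.33, limma adjusted p = 0.954). MT1F was at 9.27, 14.5 and 9.55 before and at 6.75, 12.3 and 10.6 after heat shock, with a log2 change of -0.16 ± 0.48 (limma adjusted p = 0.919).

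siJMJD6 was compared with siNT after heat shock. All 4 members that passed the filter were lower with siJMJD6, in a comparison where 46.4% of all genes tested were called, 21.4% higher and 24.9% lower. MT2A was at 914, 837 and 972 normalised counts with siJMJD6, all below the lowest siNT library at 1462. Its log2 difference was -0.76 ± 0.083 (n = 3 and 3, limma adjusted p = 2.07e-09), or 1.70-fold lower. MT1X was at 23.4, 30.9 and 26.4 with siJMJD6, all below the lowest siNT library at 70.6. Its log2 difference was -1.48 ± 0.18 (limma adjusted p = 2.31e-08), or 2.79-fold lower.

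MT1E was at 19.2, 10.8 and 34.3 with siJMJD6, again below every heat-shocked siNT library. Its log2 difference was -1.42 ± 0.24 (limma adjusted p = 1.12e-05). MT1F was at 1.14, 2.21 and 5.87 with siJMJD6, below the lowest siNT library at 6.75. Its log2 difference was -1.55 ± 0.48 (limma adjusted p = 0.00836), but MT1F passed the filter on low values only through the siNT groups, so the count of 4 of 4 is a description. Without the first siJMJD6 heat shock library the limma adjusted p of MT1F was 0.0564, and without the second basal, the second siNT heat shock or the third siNT heat shock library MT1F fell below the filter and was not tested. The median log2 difference over all genes tested was -0.034.

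The 2 rarest members were not tested. MT1L was at 2.55 to 5.33 in basal cells, 1.93 to 4.75 after heat shock and 0 to 1.08 with siJMJD6 after heat shock, so that its siJMJD6 libraries did not overlap with siNT. MT1G ranged from 0.0528 to 3.47, 0 to 1.67 and 0.0112 to 1.06 in the same groups, which overlapped.

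Against basal siNT cells, siJMJD6 cells after heat shock were lower in the same 4 members, of which MT1F again passed the filter only through siNT libraries. This comparison shares libraries with both others, and its log2 differences were -2.81 ± 0.24 for MT1E, -1.72 ± 0.48 for MT1F, -1.52 ± 0.18 for MT1X and -0.75 ± 0.083 for MT2A. Their limma adjusted p ranged from 1.18e-11 (MT1E) to 0.00383 (MT1F). Of all genes tested, 46.3% were called here, 22.2% higher and 24.2% lower. MT1E had the largest value, a 7.03-fold lower level, and its means ± SD ran from 144 ± 29.4 in basal cells to 54.0 ± 7.81 after heat shock and 21.4 ± 11.9 with siJMJD6 after heat shock (n = 3 each).

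After heat shock alone 0 of 5 epithelial markers and 1 of 2 mesenchymal markers (FN1, lower) were called, beside 4.09% of all genes. Summed mesenchymal markers were at 610.1 to 676 in basal cells and 604 to 644 after heat shock. With siJMJD6 after heat shock, 3 of 5 epithelial markers were higher (KRT8, KRT18 and KRT19) and 1 of 2 mesenchymal markers was lower (FN1). Over all genes tested 46.4% were called in this comparison, 21.4% higher and 24.9% lower. Summed epithelial markers were at 2654 to 2881 with siJMJD6 and 2310.4 to 2500 with siNT after heat shock, and summed mesenchymal markers at 508 to 591 and 604 to 644. Their part in the metallothionein difference was not tested. In cultures measured as a whole, fewer cells of a type and less RNA per cell cannot be told apart.

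The composition of the family was read from the ratio of each member to MT2A within a library. MT1E stood at 6.92%, 9.75% and 11.9% of MT2A in basal cells, at 3.04%, 4.14% and 3.35% after heat shock and at 2.10%, 1.29% and 3.52% with siJMJD6 after heat shock. Basal and heat-shocked libraries did not overlap, and the log2 ratio differed by -1.40 (exact two-sided permutation p = 0.1, adjusted 0.3 over 12 ratios tested). A p of 0.1 is the smallest that 3 against 3 libraries allow. With siJMJD6 the MT1E ratio overlapped with siNT, at a log2 difference of -0.66 (exact permutation p = 0.3, adjusted 0.5).

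MT1X stood at 4.36%, 5.02% and 6.18% of MT2A in basal cells and at 4.73%, 5.22% and 4.96% after heat shock, which overlapped. With siJMJD6 it stood at 2.56%, 3.70% and 2.72%, below every siNT library. The log2 difference was -0.72 (exact permutation p = 0.1, adjusted 0.3). In the MG132 table MT1X ranged from 1.17% to 3.80% of MT2A. None of its 6 comparisons there could pass, since an exact permutation of 2 against 2 libraries cannot go below p = 0.333.

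**Figure D3:**
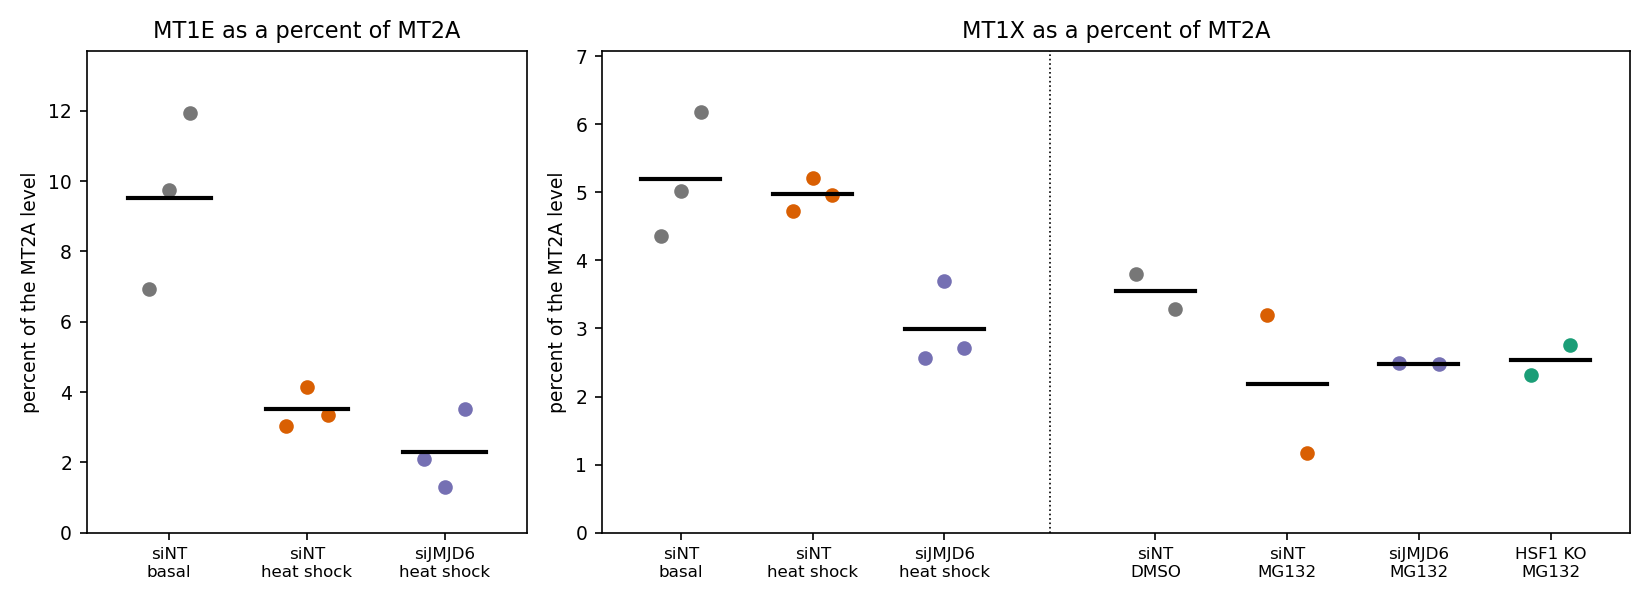
MT1E (left) and MT1X (right) as a percent of the MT2A level in each library, with group means as lines. MT1E lies at 6.92% to 11.9% in basal cells and at 3.04% to 4.14% after heat shock, and MT1X at 2.56% to 3.70% with siJMJD6 after heat shock against 4.73% to 5.22% with siNT.

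In the MG132 experiment, MG132 was compared with DMSO in siNT cells. Neither tested member was called, where 0.266% of 9778 genes were called, 0.205% higher and 0.0614% lower. MT2A was at 742 and 889 normalised counts with DMSO and at 707 and 1049 with MG132. The groups overlapped, with a log2 change of 0.084 ± 0.24 (95% interval -0.44 to 0.60, limma adjusted p = 0.993). MT1X was at 28.2 and 29.2 with DMSO and at 22.6 and 12.3 with MG132. Both MG132 libraries lay below DMSO, but the log2 change of -0.75 ± 0.44 was not called (95% interval -1.69 to 0.19, limma adjusted p = 0.911).

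siJMJD6 under MG132 was compared with siNT under MG132. MT2A was at 1234 and 1243 with siJMJD6, above both siNT libraries, with a log2 difference of 0.52 ± 0.24 (n = 2 and 2, limma unadjusted p = 0.0487, adjusted p = 0.174). MT1X was at 30.7 and 30.8 with siJMJD6, also above both siNT libraries, with a log2 difference of 0.84 ± 0.44 (limma adjusted p = 0.228). Neither difference passed the test, where 13.6% of genes tested were called, 6.22% higher and 7.35% lower. Against DMSO the siJMJD6 MG132 libraries differed by 0.61 ± 0.24 in MT2A (limma adjusted p = 0.109) and by 0.096 ± 0.44 in MT1X (limma adjusted p = 0.911), with 13.4% of genes called, 6.2% higher and 7.18% lower.

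KO cells under MG132 had the lowest MT2A of the MG132 table, at 466 and 412 normalised counts. Against siJMJD6 under MG132, MT2A was lower by a log2 difference of -1.50 ± 0.24 (n = 2 and 2, limma adjusted p = 0.00121), or 2.82-fold. MT1X, at 10.8 and 11.4 in KO cells, was also lower, by -1.40 ± 0.44 (limma adjusted p = 0.0378). Both tested members were therefore lower, where 20.8% of genes tested were called, 11.1% higher and 9.69% lower. The MT1X call was lost when any 1 of 6 libraries was left out, with limma adjusted p of 0.0575 and 0.0568 without the first and second DMSO library, 0.0980 and 0.0823 without the first and second siJMJD6 MG132 library, and 0.153 and 0.127 without KO library A and B.

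Against siNT under MG132, KO cells had an MT2A difference of -0.97 ± 0.24 that was not called (limma unadjusted p = 0.00134, adjusted p = 0.0814). Both KO libraries lay below both siNT libraries. The adjusted p of this difference fell under the threshold, to 0.0432 and 0.0427, without the first and second siJMJD6 MG132 library, which are no part of it. MT1X differed by -0.55 ± 0.44 (limma adjusted p = 0.648), and 1.28% of genes tested were called, 0.276% higher and 1% lower. Against DMSO the KO differences were -0.89 ± 0.24 for MT2A (limma adjusted p = 0.121) and -1.30 ± 0.44 for MT1X (limma adjusted p = 0.216), with 0.931% of genes called, 0.368% higher and 0.562% lower. These comparisons share the KO libraries.

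Between siJMJD6, KO and siNT under MG132, limma called 0 of 5 epithelial and 0 of 2 mesenchymal markers. Of all genes, 13.6% were called for siJMJD6 against siNT, 1.28% for KO against siNT and 20.8% for KO against siJMJD6. In each comparison at most 1 marker of each list had an unadjusted p under 0.05. Against DMSO, 1 of 2 mesenchymal markers, VIM, was lower with siJMJD6 under MG132, beside 7.18% of all genes. Summed mesenchymal markers were at 249 to 399 with siJMJD6, 493 to 528 in KO cells and 518 to 519 with siNT under MG132. Summed epithelial markers were at 2141 to 2472, 2081 to 2089 and 1479 to 2026 in the same groups, and the blood marker CD14 at 5.25 to 8.54, 0 to 0.0123 and 0 to 1.04. The siJMJD6 ranges did not overlap with those of the other groups, but these sums were not tested and each group has 2 libraries. CD14 lay below the filter of 10. The epithelial marker CDH1 went against its sum, at 12.0 to 36.2 with siJMJD6 against 41.2 to 51.1 with siNT under MG132. The mesenchymal sum followed VIM, at 214 to 385 with siJMJD6 against 505 to 506 with siNT under MG132. FN1, the other mesenchymal marker, did not go with it, at 13.9 to 35.1 against 12.2 to 14.5, which overlapped. The part of the markers in the metallothionein differences was not tested.

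MT1E and MT1F were too low in the MG132 table to test. MT1E was at 0 in both DMSO libraries and at most 2.91 in any other library of that table. MT1F ranged from 0.0089 to 5.58 there.

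**Figure D4:**
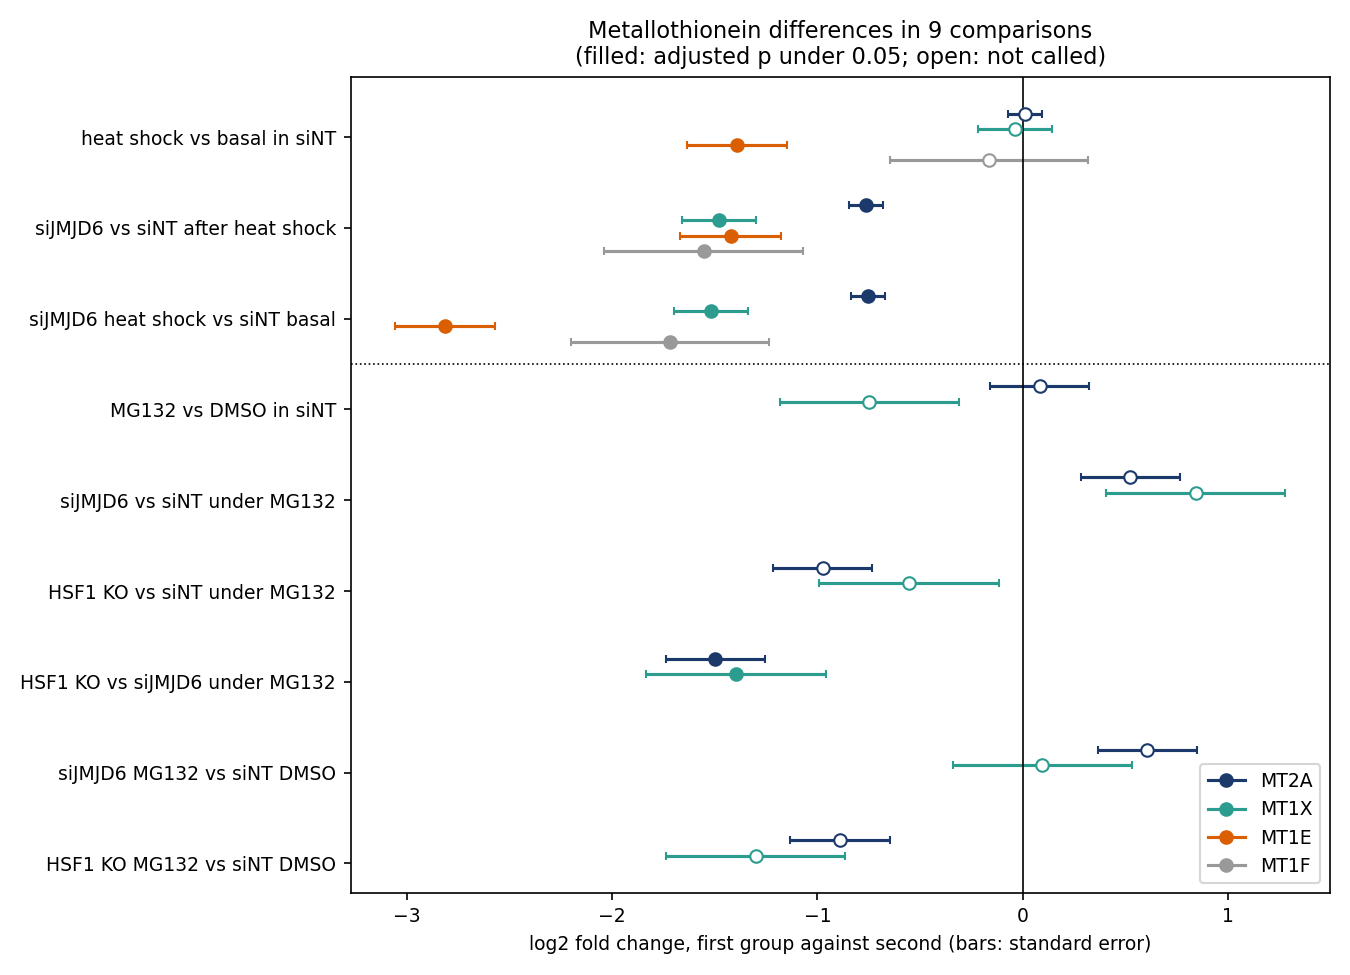
Log2 fold changes (first group against second, bars are standard errors) of the tested members in 9 comparisons, filled where the adjusted p was under 0.05. After heat shock all 4 members lie left of 0 with siJMJD6, between -1.55 and -0.76, while under MG132 MT2A and MT1X lie right of 0 without being called. MT1F passed the filter only through siNT libraries.

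The 2 siJMJD6 comparisons share no library. MT2A and MT1X were lower with siJMJD6 after heat shock in every library, and higher in every library under MG132, where they were not called. Of 9379 genes tested in both tables, 118 (1.26%) had this arrangement of libraries and 95 (1.01%) the reverse. A different set, the 1076 genes called in both, had the same direction in 98.8%. MT2A and MT1X could not belong to it, as neither was called under MG132, so that share is not a like comparison. The difference between the experiments was not tested, and the number of libraries, the stress and its length differ between them.

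The control groups of the experiments also differed. MT1E was at 110 to 163 normalised counts in basal siNT cells and listed at 0 in both siNT DMSO libraries. Of 13088 genes listed in both tables, 1 gene, MT1E, had at least 50 in every basal library and under 1 in every DMSO library, and 0 genes had the reverse. These cut-offs were not planned and the values of MT1E already meet them, so this count is a description and not a test. The log2 level in basal cells minus that in DMSO cells was 0.91 for MT2A, a value at least as large as which 9.01% of genes had, and 1.42 for MT1X (2.06% of genes), beside a median of 0.24. The tables were normalised separately, and the experiment and the DMSO treatment cannot be told apart. Over the 3 heat shock groups the order of MT2A means ± SD was 1542 ± 113 (siNT heat shock), 1534 ± 172 (basal) and 908 ± 67.7 (siJMJD6), the first pair not differing beyond its spread. In the MG132 table the order was 1238 ± 5.78 (siJMJD6), 878 ± 242 (siNT MG132), 815 ± 104 (DMSO) and 439 ± 38.3 (KO), the middle pair not differing beyond its spread.

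Across libraries, with each gene centred within its table, MT1X and MT2A had a Pearson r of 0.77 over 17 libraries, 0.93 over the 9 heat shock libraries and 0.68 over the 8 MG132 libraries. MT1E had an r of 0.81 with each of them over the heat shock libraries. These values describe libraries that share groups and scaling. The profile of MT1E, MT1X and MT2A was then compared with 4386 genes averaging at least 50 in both tables. This profile includes the MT1E values below the filter. The highest r over 17 libraries belonged to NDUFS8 (0.895), a subunit of respiratory complex I, CHID1 (0.887), NDRG1 (0.873), a stress- and hypoxia-regulated gene, PRMT1 (0.872), an arginine methyltransferase, and MAPK3 (0.870), the kinase ERK1. The lowest belonged to SMC4 (-0.872), a condensin subunit, PAK2 (-0.867), a kinase, and SEC62 (-0.858), of the endoplasmic reticulum translocon. The median r was 0.0353. With a profile of MT1X and MT2A alone, an alternative chosen after seeing the data, the top genes were VCL (0.900), EFHD2 (0.891), CSTB (0.882), APP (0.864) and MAPK3 (0.854), so that MAPK3 alone stayed among the first 5.

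MTF1, the zinc sensor of the metallothionein promoters, was called in none of the 9 comparisons. It was at 12.8 to 55.9 normalised counts over all libraries. Its log2 change was 0.32 ± 0.22 after heat shock (limma adjusted p = 0.546) and its log2 difference 0.027 ± 0.22 with siJMJD6 after heat shock (limma adjusted p = 0.930). SLC30A1, the zinc exporter that is also an MTF1 target, was at 0.0199 to 11.6 and was not tested.

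Among 8 regulators listed for metallothionein genes, 6 were tested, and with siJMJD6 after heat shock 1 was higher and 4 were lower, beside 21.4% and 24.9% of all genes. The lower ones were HIF1A (log2 difference -1.15), the hypoxia factor, NFE2L2 (-1.08), which encodes NRF2, SP1 (-0.74) and NR3C1 (-0.38), the glucocorticoid receptor, and HSF1 was higher (0.25). Under MG132 with siJMJD6, 0 were higher and 2 were lower, NFE2L2 (-1.38) and HIF1A (-0.93), beside 6.22% and 7.35% of all genes. NFE2L2 and HIF1A were therefore lower in both experiments. The median of the 6 genes was -0.56 after heat shock and -0.57 under MG132, against medians of -0.034 and -0.050 over all genes. In the 2 comparisons of stress with its control in siNT cells, 0 of 6 regulators were called by limma, and 0 had an unadjusted p under 0.05. Of all genes tested, 4.09% were called after heat shock and 0.266% with MG132.

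Zinc transporters, which move zinc out of (SLC30) or into (SLC39) the cytosol, were described from a list of 24 genes, of which 15 were tested in each table. With siJMJD6 after heat shock, 5 were higher and 6 were lower, at a median of -0.14, beside 21.4% higher and 24.9% lower of all genes tested. SLC39A10, a zinc importer, was at 24.5, 14.0 and 33.3 normalised counts with siJMJD6 and at 109, 113 and 107 with siNT. The groups did not overlap, and the log2 difference was -2.23 ± 0.20 (limma adjusted p = 3.13e-11). SLC30A7, which loads zinc into the secretory pathway, was at 78.1, 77.4 and 69.6 against 41.5, 33.1 and 27.4, a log2 difference of 1.14 ± 0.20 (limma adjusted p = 1.69e-05). SLC39A1 was also higher (1.09 ± 0.11, limma adjusted p = 1.94e-10) and SLC30A9 lower (-1.65 ± 0.19, limma adjusted p = 1.02e-08).

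Under MG132 with siJMJD6, 1 of the 15 zinc transporters was higher and 1 was lower, at a median of -0.22, beside 6.22% higher and 7.35% lower of all genes. SLC39A10 was at 10.7 and 12.9 with siJMJD6 against 52.5 and 81.5 with siNT, a log2 difference of -2.38 ± 0.34 (limma adjusted p = 0.00102). SLC30A7 was at 68.0 and 68.9 against 24.7 and 28.3, a log2 difference of 1.34 ± 0.35 (limma adjusted p = 0.0269). SLC39A10 and SLC30A7 thus had the same direction in both experiments, whereas the values of MT2A and MT1X had opposite signs. SLC39A7, a zinc transporter of the same list, had the arrangement of MT2A and MT1X. It was at 262 to 310.22 with siJMJD6 against 310.34 to 361 with siNT after heat shock. Under MG132 it was at 336 to 405 against 290 to 320. After heat shock alone limma called 0 of 15, beside 4.09% of all genes, with the smallest unadjusted p in SLC39A13 (0.0491). With MG132 alone limma called 0 of 15, beside 0.266% of all genes, with the smallest unadjusted p in SLC39A6 (0.0716). In KO against siJMJD6 under MG132, 1 of 15 was higher (SLC39A10, 2.07 ± 0.34) and 3 were lower, beside 11.1% higher and 9.69% lower of all genes.

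Copper-handling genes were described from a list of 12. With siJMJD6 after heat shock, 3 of 11 tested were higher and 3 were lower, and under MG132 3 of 10 were higher and 1 was lower. Over all genes tested 46.4% were called after heat shock, a share near that of this list, and 13.6% under MG132. SLC31A1, the copper importer, was lower in both (-1.40 ± 0.17 and -1.45 ± 0.29, limma adjusted p = 3.11e-08 and 0.00747), and ATOX1, a copper chaperone, was higher in both (0.50 and 0.91). COMMD1 (1.63) and SCO2 (1.24) were higher under MG132. ATP7A, a copper exporter, differed by -1.63 after heat shock and by 0.92 ± 0.57 under MG132, the latter not called (limma adjusted p = 0.319). ATP7A passed the filter of the heat shock table only through the siNT heat shock libraries, at 12.2 to 17.4 against 2.20 to 8.50 with siJMJD6, so its lower call there is a description. Heat shock alone raised 1 of 11, SOD1 (0.26 ± 0.077, limma adjusted p = 0.0475), beside 2.86% of all genes higher.

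**Figure D5:**
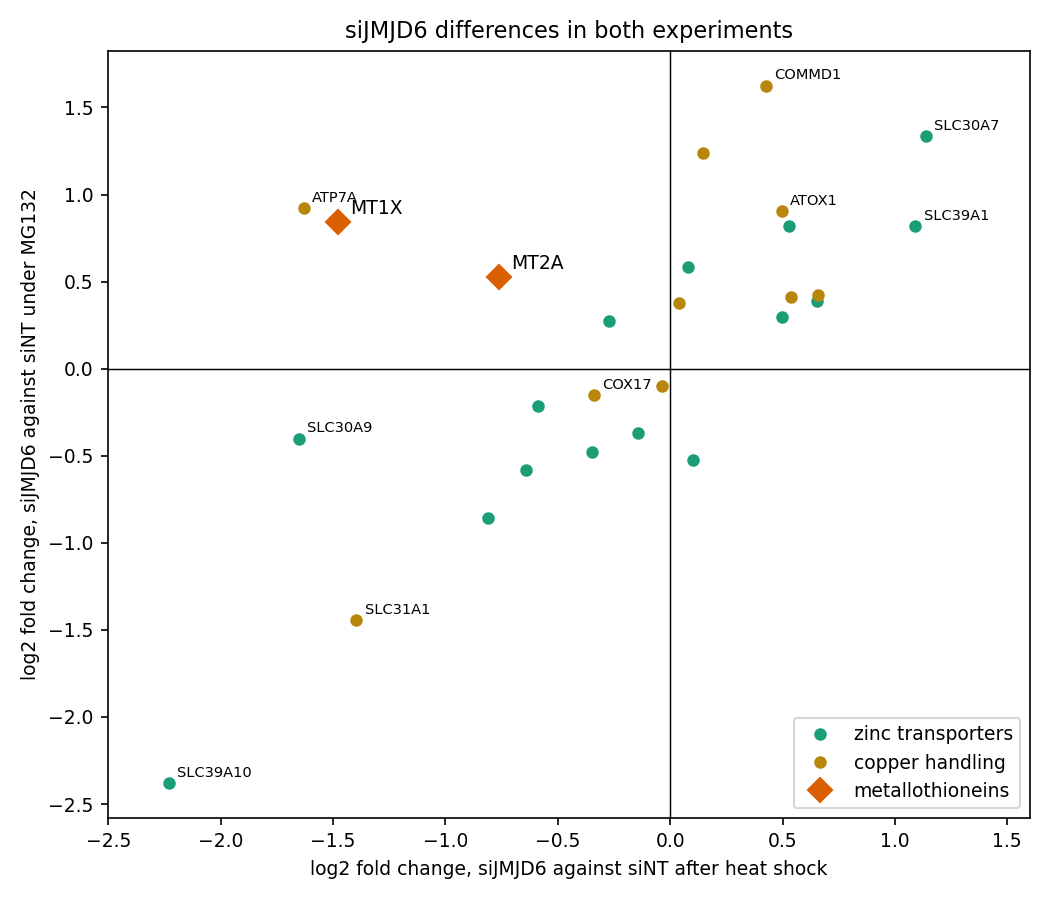
Log2 fold changes of siJMJD6 against siNT after heat shock (horizontal) and under MG132 (vertical) for zinc transporters, copper-handling genes and the metallothioneins tested in both tables. MT1X and MT2A lie at upper left, lower after heat shock and above 0 under MG132. SLC39A7 and ATP7A lie there too, and ATP7A passed the heat shock filter only through siNT libraries. SLC39A10 and SLC31A1 lie at lower left and SLC30A7 at upper right.

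Glucocorticoid-responsive genes (9 listed, 8 tested after heat shock) had 3 higher and 1 lower with siJMJD6 after heat shock: CEBPD (1.31), SGK1 (1.19) and TSC22D3 (0.47) were higher and ERRFI1 (-1.72) was lower. Under MG132, 0 of 7 tested were higher and 2 were lower, ERRFI1 (-1.31) and TSC22D3 (-1.05). SGK1 passed the filter through 2 siJMJD6 libraries and 1 siNT library. The 4 of 8 called after heat shock stood near the 46.4% called over all genes, beside 13.6% under MG132. NRF2 targets, the oxidant-defence genes, had 1 higher and 6 lower of 10 with siJMJD6 after heat shock and 0 higher and 4 lower under MG132, where 24.9% and 7.35% of all genes were lower. SLC7A11, the cystine importer, was lower in both (-1.88 and -2.94), as were TXNRD1 (-1.14 and -1.24) and NQO1 (-0.82 and -0.85). The median of the NRF2 targets was -0.71 after heat shock and -0.73 under MG132. In KO against siJMJD6 under MG132, 6 of 10 NRF2 targets were higher and 1 was lower, beside 11.1% and 9.69% of all genes. There 2 of 10 copper-handling genes were higher and 4 lower, and 2 of 7 glucocorticoid-responsive genes were higher and 0 lower. Of 6 regulators 1 was higher and 1 was lower, HSF1 itself. With MG132 alone HMOX1, the heme oxygenase, rose (2.45 ± 0.38, limma adjusted p = 0.0119), 1 of 10, beside 0.205% of all genes higher. With heat shock alone SRXN1 fell (-0.41 ± 0.11, limma adjusted p = 0.0183), 1 of 10, beside 1.23% of all genes lower.

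The genes on either side of the metallothionein cluster were NUDT21, OGFOD1 and BBS2 before it and NUP93, SLC12A3 and HERPUD1 after it, of which 5 were tested. With siJMJD6 after heat shock, 4 of 5 were lower: NUDT21 (-0.55), OGFOD1 (-0.91), NUP93 (-0.24) and HERPUD1 (-1.72), an endoplasmic reticulum stress gene. Heat shock alone raised 1 of 5, HERPUD1, beside 2.86% of all genes higher. HERPUD1 went from 170.2 to 197 normalised counts in basal cells to 799 to 866, a log2 change of 2.16. Under MG132 with siJMJD6, 1 of 5 was lower, HERPUD1 (-2.14), beside 7.35% of all genes. The 4 of 5 neighbours lower with siJMJD6 after heat shock stood in a comparison where 24.9% of all genes were lower. A link between the neighbours and the members was not tested.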

How the data were processed

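Messenger RNA of 17 PC3M libraries was measured by QuantSeq FWD from 100 ng RNA, per the labels' protocols. Per the submitters' processing notes, FastQC 0.11.2, STAR 2.6.0, HTSeq and build hg38 were used. No source used here gives the annotation, strand setting, gene filter or scaling. The signal values are the authors' normalised counts, deposited as 1 table per experiment with 13616 (heat shock) and 14085 (MG132) genes. All 17 value columns matched a label.

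Groups followed the labels. Each table was fitted alone with limma 3.58.1 (R 4.3.3) on log2(value + 1), all groups in one fit with trend, after a filter of 10 normalised counts in 3 (heat shock) or 2 (MG132) libraries, leaving 9831 and 9778 genes. p-values were Benjamini-Hochberg adjusted over all genes tested and called under 0.05. The script was tested on simulated data. Ratios were tested by exact permutation in SciPy 1.17.1. The values are not whole, so no depth in reads and no counting interval is given. A fold change on this scale understates the change of low genes.

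The members and lists were chosen with earlier results of these data known. Every member is named, with library values where it passed the filter. The plan was to name up to 4 called list genes with the smallest adjusted p, or 2 with the smallest p where none was called. With siJMJD6 after heat shock every called regulator is named, HSF1 included. In some other comparisons fewer genes than planned are named, or none. MTF1, SLC30A1, SLC39A7, the markers CDH1, VIM and FN1, the genes beside the cluster and those most and least like the members are named as well. Libraries sharing a number deviated together by r of -0.035 to 0.094 over 9 pairs (heat shock) and 0.045 to 0.37 over 6 pairs (MG132). With 2 libraries per group, MG132 libraries of different number give the mirror values, -0.37 to -0.045, so the 6 pairs are not independent. The MG132 values were all positive for shared numbers and do not exclude pairing. The labels do not state pairing, so numbers were not taken as pairs in the main fit. Alternatives were another pseudocount, no filter, trimmed-mean and quantile scaling, a fit of the compared groups alone, a replicate block and leaving out each library.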

Additional observations from a re-analysis of the deposited data

Results flagged for a closer look

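MT1X and MT2A differed between the experiments in the direction of the siJMJD6 difference. Every siJMJD6 library lay above every siNT library under MG132 and below every siNT library after heat shock. The log2 difference under MG132 minus that after heat shock was 2.32 for MT1X and 1.29 for MT2A. This difference between experiments was not tested, the tables were normalised separately, and neither gene was called under MG132.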

How the results depend on the processing

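After heat shock alone, 1 member was called under each alternative. With siJMJD6 after heat shock, 4 members were called against siNT and against basal cells under TMM scaling, quantile normalisation, a pseudocount of 10 and the replicate block, 5 with no filter (MT1L added, limma adjusted p = 0.0137 and 0.00612) and 3 with only the groups compared, where MT1F was not tested. Leaving out 1 library gave 3 to 4 members called with siJMJD6 after heat shock against siNT and against basal cells. MT1F was the member lost, through the filter or, against siNT without the first siJMJD6 library, the threshold. For KO against siNT under MG132, 1 member (MT2A) was called with quantile normalisation (limma adjusted p = 0.0478) and with only the groups compared (0.0402) in place of 0, and leaving out 1 library gave 0 to 1. For KO against siJMJD6 under MG132, 1 member in place of 2 was called with no filter (MT1X limma adjusted p = 0.0640) and with only the groups compared (0.0542), and leaving out 1 library gave 1 to 2. For KO against DMSO, 1 member (MT2A) was called in place of 0 with only the groups compared (limma adjusted p = 0.0393). The cause was not tested.

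Values that were not called changed sign in places. MT2A after heat shock alone gave -0.0030 with TMM scaling and -0.024 with quantile normalisation, and -0.083 to 0.074 with 1 library left out. With 1 library left out, MT1X after heat shock alone ran from -0.12 to 0.019, MT1F after heat shock alone from -0.27 to 0.064, and MT2A with MG132 alone ran from -0.20 to 0.37. The MT1X to MT2A log2 ratio ran from -0.16 to 0.085 (heat shock alone), -0.38 to 1.02 (siJMJD6 under MG132), -0.28 to 1.12 (KO against siNT) and -0.024 to 0.23 (KO against siJMJD6).

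The number of genes called over the whole table also moved. So few members were tested that their counts are not a like comparison. With MG132 alone it was 26, and 6 with no filter. With siJMJD6 under MG132 it was 1327 and ran from 349 to 1792, and KO against siJMJD6 gave 2033 with a range of 653 to 2131. With the replicate block, MT2A under MG132 with siJMJD6 had a limma adjusted p of 0.118 and MG132 alone gave 40 genes. The block changed no member's call, and no paired fit was made for the KO comparisons because their labels carry no shared number. Low normalised counts limit MT1E and MT1F under MG132, and MT1G and MT1L throughout.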
